A study of Zea mays with 9 samples.

Results

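Catalases, ascorbate peroxidases and the manganese superoxide dismutase sod3 were examined as 7 genes of hydrogen peroxide and superoxide metabolism in the maize primary root growth zone. The members were taken by gene ID from the deposited read tables: the catalases cat1, cat2 and cat3, the ascorbate peroxidases GRMZM2G137839, apx2 (GRMZM2G140667) and GRMZM2G054300, and sod3. They are 7 of 39323 genes listed, and 7 of the 22447 genes that passed the filter of at least 1 CPM (reads scaled to a common library total) in at least 3 of the 9 libraries.

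RNA-seq was performed on seedlings of the inbred line B73 that were grown in the dark in moist vermiculite, a culture in which the plants do not transpire, and transplanted to 1 of 3 water potentials. The treatments were well-watered (-0.02 MPa, replicates 1, 2 and 3), mild water deficit stress (-0.3 MPa, replicates 1, 3 and 4), and, as the driest, severe stress at -1.6 MPa (replicates 1, 2 and 5). All roots were harvested 26 h after transplanting, and each replicate was a pool of the apical 1 cm, root cap included, of 5 primary roots. The growth zone of this root is known to shorten as water deficit deepens, so that the same segment holds a different share of growing tissue in each treatment.

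Superoxide dismutases convert superoxide to hydrogen peroxide, and the manganese enzyme does so in the mitochondrion. Hydrogen peroxide is then removed by catalases, which split it to water and oxygen without a reductant, and by ascorbate peroxidases, which reduce it with ascorbate. In roots these enzymes act beside NADPH oxidases, which make superoxide outside the cell, and reactive oxygen species are known to take part in both growth and the response to water deficit.

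Reads assigned to annotated transcripts numbered 33401124 to 52072025 per library, and reads unique to 1 transcript made up 48.1% to 48.7% of these. The tissue label was checked against marker genes: the root genes scr1, rth3 and rtcs1 lay at 20.6 to 29.1, 39.9 to 63.7 and 1.59 to 8.56 CPM, and the shoot or leaf genes kn1, pep1 and ssu1 at 0.171 to 0.696, 0.603 to 2.05 and 0 to 0.151 CPM. The root markers moved with severe stress: against well-watered roots rtcs1 rose (log2 fold change 1.92, FDR 8.84e-06), rth3 fell (-0.45, FDR 0.000109) and scr1 gave -0.15 (FDR 0.127), and the part of such tissue differences in the members' changes was not tested. 1 library stood apart, severe replicate 2, whose log2 abundances correlated with those of severe replicates 1 and 5 at r = 0.982 and 0.987, whereas the other 7 pairs within a treatment gave 0.993 to 0.995. Calls and fold changes of the members below that rest on it are therefore also given without it. For the other genes only some values are given without it. Abundances of the members are CPM scaled by TMM factors (a correction for differences in library composition), and a gene is called changed at an FDR below 0.05 in an edgeR quasi-likelihood F-test over all 22447 genes.

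Under severe stress 4 of the 7 genes rose against well-watered roots (cat1, cat2, cat3 and GRMZM2G137839), 1 fell (apx2) and 2 did not pass the test (GRMZM2G054300 and sod3). Of these, cat2 was tested only because its severe libraries passed the filter, so its rise is not independent of that filter. Across all genes 58.9% were called in this comparison, 29.7% higher and 29.1% lower, so a call alone was common. The median log2 fold change was 0.28 over the 7 genes and -0.01 over all genes tested. Libraries of the 2 treatments did not overlap for 6 of the 7 genes, compared with 66.1% of all genes. Without TMM factors 62.5% of all calls were higher rather than 50.5%, and GRMZM2G054300 was then called as well.

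Under mild stress 0 of the 7 genes passed the edgeR quasi-likelihood test against well-watered roots, where 10.2% of all genes did, 5.31% higher and 4.85% lower. At an unadjusted p under 0.05 there was 1 gene, apx2, compared with 23.0% of all genes. DESeq2 and edgeR's likelihood ratio test also called 0 of the 7, and 11.6% and 12.0% of all genes. Without severe replicate 2, or in a fit of only the mild and well-watered libraries, apx2 was called, at an FDR of 0.0362 and 0.0343, in fits that called 15.6% and 16.6% of all genes. Only apx2 had non-overlapping mild and well-watered libraries, 1 of 7 against 33.8% of all genes. Severe against mild stress called the same 4 genes higher and the same 1 lower as severe stress against well-watered roots, where 53.9% of all genes were called, and libraries did not overlap for 6 of the 7 genes, compared with 60.6% of all genes. These comparisons share libraries, so their agreement is not independent.

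**Figure D1:**
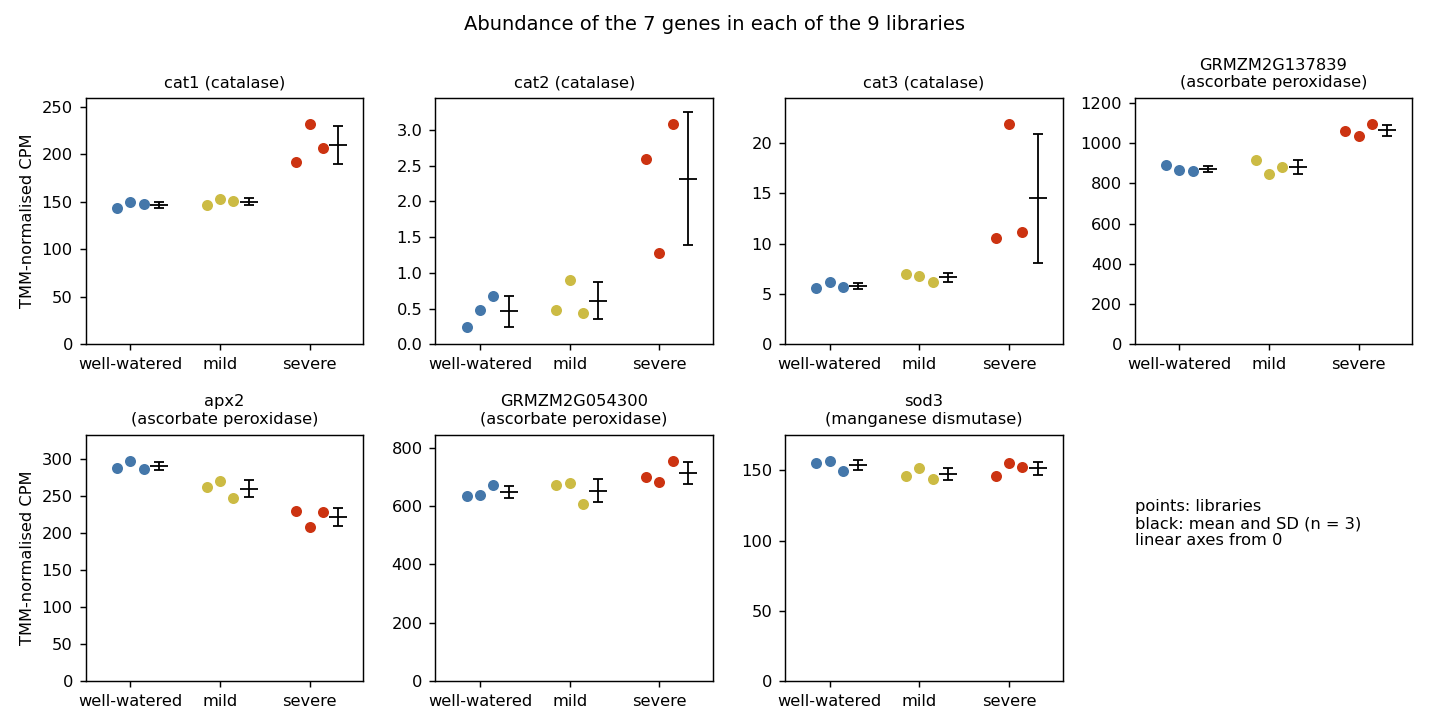
Each panel plots 1 gene in TMM-normalised CPM on a linear axis from 0, with a point for each library and the mean ± SD (n = 3) in black beside it, for well-watered, mild and severe roots. All severe points of cat1, cat2, cat3 and GRMZM2G137839 lie above the other libraries, those of apx2 lie below them, and severe replicate 2 (middle severe point) is the highest for cat3 at 21.9 CPM and the lowest severe library for cat2 at 1.28 CPM.

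Among the members' enzyme classes the catalases had the largest relative differences. All 3 rose under severe stress, where 29.7% of all genes were called higher. The largest of these differences, that of cat2, is tied to the filter as described below. GRMZM2G006791, an ascorbate peroxidase gene outside the members that is also tied to the filter, gave a larger log2 fold change (2.34). cat1 (GRMZM2G088212) lies on chromosome 5 at 63593142 to 63597617 on the plus strand of B73 RefGen_v3, has 2 annotated transcripts and received 4770 to 12641 reads per library. It had 143, 150 and 148 CPM in well-watered roots, 146, 153 and 151 CPM in mild roots and 191, 232 and 206 CPM in severe roots. All severe libraries were thus above all others, while well-watered and mild libraries overlapped.

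cat1 rose 1.43-fold in severe against well-watered roots, a log2 fold change of 0.51 ± 0.0685 SE (FDR 7.77e-05), and was higher than under mild stress by 0.48 on the log2 scale (FDR 0.000165). Without severe replicate 2, its highest library, the log2 fold change against well-watered roots was 0.43 (FDR 1.79e-05) and that against mild roots 0.40 (FDR 4.78e-05). Mild against well-watered roots gave 0.03 on the log2 scale with a 95% interval of -0.12 to 0.18 (FDR 0.853). Nearly all of its reads, 99.8%, were assigned to the transcript GRMZM2G088212_T01 with 8 exons. In bulk tissue a change in the share of cells that express a gene and a change in RNA per cell cannot be told apart, which holds for every gene described here.

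cat2 (GRMZM2G090568), which is known in maize from seed and leaf tissue, was barely expressed outside severe stress. It lies on chromosome 1 at 7153870 to 7156146 on the minus strand and received 8, 20 and 28 reads in well-watered roots, 19, 30 and 18 in mild roots and 138, 70 and 113 in severe roots. In CPM these were 0.241, 0.476 and 0.674 in well-watered, 0.482, 0.904 and 0.441 in mild and 2.59, 1.28 and 3.08 in severe roots. The gene passed the filter of 1 CPM only through the severe libraries, so its presence among the genes tested already depended on its level there.

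The log2 fold change of cat2 was 2.27 ± 0.412 SE (FDR 0.000654) for severe against well-watered roots and 1.93 (FDR 0.00193) for severe against mild roots. Severe replicate 2 was the lowest severe library for cat2, and without it the log2 fold change against well-watered roots was 2.56 (FDR 2.58e-05) and that against mild roots 2.24 (FDR 9.00e-05). The mild value of 0.34 had a 95% interval of -0.70 to 1.37 (FDR 0.740). The well-watered and mild libraries held 8 to 30 reads each, and the mild value moved between -0.0341 and 0.70 when single libraries were left out, so no direction can be given. Of its reads 87.8% were assigned to GRMZM2G090568_T02 and 12.2% to GRMZM2G090568_T01, which was too low to be tested.

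cat3 (GRMZM2G079348) lies on chromosome 4 at 240651914 to 240655881 on the plus strand and has 5 annotated transcripts. It had 5.56, 6.16 and 5.70 CPM in well-watered roots, 6.95, 6.81 and 6.15 CPM in mild roots and 10.5, 21.9 and 11.1 CPM in severe roots. Severe replicate 2 lay far above the other severe libraries, and both of those were still above every well-watered and mild library.

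cat3 rose 2.50-fold in severe against well-watered roots (log2 fold change 1.32 ± 0.237 SE, FDR 0.000598). Leaving out severe replicate 2 gave 0.89 on the log2 scale (FDR 6.59e-06), and with reads unique to 1 transcript, 8.52% of its total, it was 0.73 (FDR 0.0297). Against mild stress it was 1.13 (FDR 0.00189), or 0.70 without that library (FDR 6.66e-05). The mild value was 0.19 with an interval of -0.35 to 0.73 (FDR 0.716), and it was -0.25 (FDR 0.694) with unique reads, so no direction can be given for mild stress.

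Reads of cat3 were spread over its transcripts. GRMZM2G079348_T01 held 65.0% and GRMZM2G079348_T02 28.8% of the reads, and under severe stress both rose against well-watered roots (log2 fold changes 1.00 and 1.72, FDR 0.0109 and 0.0130), in a test over 34516 transcripts of which 35.1% were called. With severe replicate 2 left out these were 0.69 and 1.19 (FDR 0.0225 and 0.0403). 3 shorter models that start upstream, T03, T04 and T05, had too few reads to be tested: T03 had 19, 94 and 5 reads in severe roots against 0, 1 and 1 in well-watered roots, and T05 had 6, 14 and 3 against 0 in each well-watered library. The largest of these counts were again in severe replicate 2.

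Summed over the 3 genes, catalase reads came to 153 ± 3.64, 157 ± 3.44 and 227 ± 25.7 CPM (SD, n = 3) in well-watered, mild and severe roots, with 255 CPM in severe replicate 2. cat1 made up 95.9 ± 0.182%, 95.4 ± 0.365% and 92.7 ± 1.54% of them. The share of cat3 was 3.79 ± 0.135%, 4.22 ± 0.307% and 6.25 ± 2.01%, and that of cat2 0.301 ± 0.138%, 0.385 ± 0.154% and 1.06 ± 0.483%. The severe share of cat3 was the highest in replicate 2, at 8.58%, against 5.05% in its lowest severe library. These are shares of reads and are not corrected for transcript length.

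The 3 ascorbate peroxidases did not move together: under severe stress GRMZM2G137839 rose, apx2 fell and GRMZM2G054300 did not pass the test. GRMZM2G137839, listed with the synonym POD1 in the RefSeq gene table, lies on chromosome 1 at 43682818 to 43686019 on the plus strand and was the member with the most reads, 28084 to 56573 per library. It had 890, 865 and 863 CPM in well-watered roots, 914, 846 and 879 CPM in mild roots and 1059, 1036 and 1093 CPM in severe roots. The severe libraries were above all others by a margin larger than the spread within any treatment.

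GRMZM2G137839 rose 1.22-fold in severe against well-watered roots (log2 fold change 0.28 ± 0.0595 SE, FDR 0.00167) and 1.21-fold against mild stress (0.27, FDR 0.00259). Without severe replicate 2 these log2 fold changes were 0.30 (FDR 0.000253) and 0.29 (FDR 0.000458). With the replicate number as a term, which leaves 2 residual degrees of freedom, they were 0.25 (FDR 0.0716) and 0.24 (FDR 0.167), and neither passed. The mild value was 0.01 with an interval of -0.12 to 0.14 (FDR 0.938). Its transcript GRMZM2G137839_T01 with 9 exons held 99.97% of its reads, and 17.3% of the gene's reads were unique to 1 transcript.

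apx2 lies on chromosome 2 at 219258176 to 219261097 on the minus strand and was the only member that fell. It had 287, 297 and 287 CPM in well-watered roots, 262, 270 and 248 CPM in mild roots and 229, 208 and 228 CPM in severe roots. No library of a drier treatment reached the lowest library of a wetter one.

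The abundance of apx2 fell in severe roots to 0.763 of the well-watered level (log2 fold change -0.39 ± 0.0600 SE, FDR 0.000211) and was lower under severe than under mild stress (-0.23, FDR 0.00740). Without severe replicate 2 these log2 fold changes were -0.34 (FDR 0.000131) and -0.18 (FDR 0.0117), and without mild replicate 3 the value against mild stress was -0.18 (FDR 0.0537), no longer past the threshold. Mild against well-watered roots gave -0.16 ± 0.0600 SE with an interval of -0.29 to -0.03 (FDR 0.127). The mild value did not pass over all genes, with the exceptions given above. With the replicate number as a term the value against mild stress was -0.27 (FDR 0.0896). These values rest on total reads, of which 0.0965% were unique to 1 transcript. Unique reads numbered 8, 9 and 10 in well-watered, 10, 4 and 11 in mild and 13, 17 and 10 in severe libraries. These were too few to test, so the fall was not tested with unique reads.

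GRMZM2G054300 lies on chromosome 9 at 138678093 to 138682438 on the plus strand. It had 636, 640 and 673 CPM in well-watered roots, 674, 679 and 609 CPM in mild roots and 700, 684 and 755 CPM in severe roots. Each severe library was above each well-watered and mild library, yet the log2 fold change of 0.13 ± 0.0673 SE against well-watered roots did not pass (interval -0.01 to 0.28, FDR 0.107), nor did 0.12 against mild roots (FDR 0.138).

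This call turned on the processing. Without severe replicate 2 the value of GRMZM2G054300 was 0.16 against well-watered roots (FDR 0.0376) and 0.15 against mild roots (FDR 0.0530), and without TMM factors it was 0.23 (FDR 0.00740) and 0.20 (FDR 0.0165) in the same comparisons. The mild value was 0.01 with an interval of -0.14 to 0.16 (FDR 0.961).

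**Figure D2:**
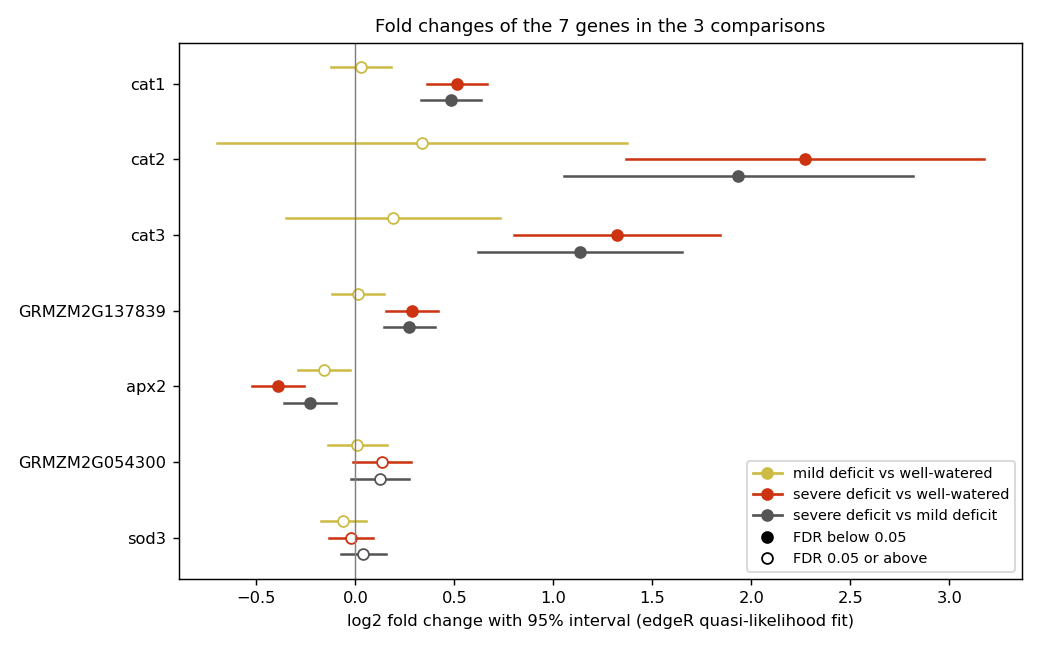
Log2 fold changes of the 7 genes (points) with 95% intervals (lines) for mild against well-watered, severe against well-watered and severe against mild roots, filled where the FDR is below 0.05. No mild point is filled, cat2 and cat3 have wider intervals than the other 5 genes in each comparison (1.37 to 3.18 and 0.80 to 1.84 under severe stress), and apx2 alone has filled points below 0.

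At the level of annotated transcripts the assignment of reads varied between replicates of 1 treatment. The share of apx2 reads assigned to GRMZM2G140667_T01 was 26.8% to 46.0% in well-watered, 45.5% to 60.3% in mild and 41.9% to 57.2% in severe roots, and only 0.0965% of the gene's reads were unique to 1 transcript. GRMZM2G140667_T02 and GRMZM2G140667_T04 fell under severe stress against well-watered roots (log2 fold changes -0.64 and -0.87, FDR 0.0211 and 0.0245), whereas GRMZM2G140667_T01 gave 0.03 (FDR 0.941). Neither fall passed without severe replicate 2 (-0.65 and -0.77, FDR 0.0554 and 0.0853). Under mild stress GRMZM2G140667_T02 gave -0.73 with FDR 0.0671, in a test in which 3.56% of transcripts were called.

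For GRMZM2G054300, GRMZM2G054300_T02 held 48.1%, GRMZM2G054300_T04 26.1% and the single-exon GRMZM2G054300_T05 19.7% of the reads, and 0.183% of the gene's reads were unique. None of these 3 passed for severe against well-watered roots (log2 fold changes 0.08, 0.40 and 0.14, FDR 0.400, 0.149 and 0.614). GRMZM2G054300_T02 rose under severe against mild stress (0.22, FDR 0.0441), where 30.3% of transcripts were called, and did not pass without severe replicate 2 (0.24, FDR 0.0632). With so few unique reads, the split among transcripts of these 2 genes depends on how shared reads were assigned, and its part in the transcript values was not tested.

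**Figure D3:**
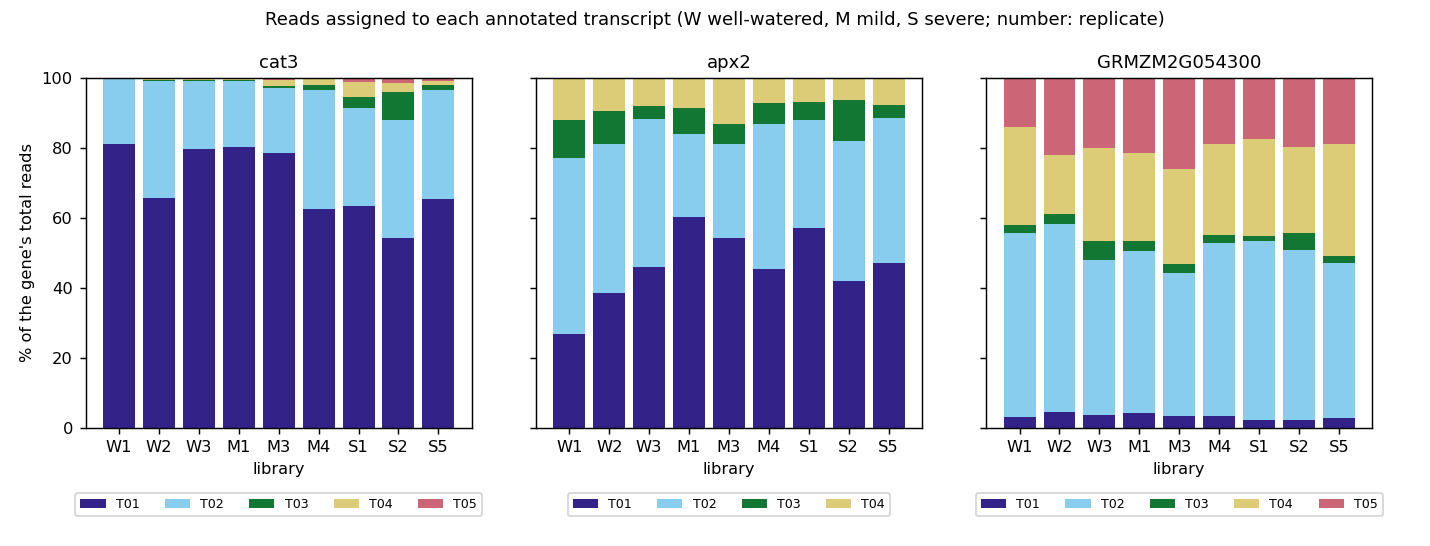
Stacked bars give the percentage of a gene's total reads assigned to each annotated transcript in each of the 9 libraries for cat3, apx2 and GRMZM2G054300. Replicates of 1 treatment differ widely, as for T01 of apx2 in well-watered roots (26.8% to 46.0%), and T03, T04 and T05 of cat3 are visible mainly in severe libraries.

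Summed over the 3 genes, ascorbate peroxidase reads came to 1813 ± 10.8, 1794 ± 57.2 and 1998 ± 74.9 CPM (SD, n = 3) in well-watered, mild and severe roots. The share of GRMZM2G137839 was 48.1 ± 0.871%, 49.1 ± 1.78% and 53.2 ± 0.553%, and that of apx2 was 16.0 ± 0.410%, 14.5 ± 0.484% and 11.1 ± 0.384%. The share of GRMZM2G054300 was 35.8 ± 0.952%, 36.4 ± 1.36% and 35.7 ± 0.607%. These differences in the share of GRMZM2G054300 were smaller than its SD under mild stress. The shares hold for total reads only: with reads unique to 1 transcript the well-watered shares of GRMZM2G137839, apx2 and GRMZM2G054300 were 99.1%, 0.154% and 0.771%.

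sod3 (GRMZM2G059991) lies on chromosome 6 at 136070517 to 136074741 on the plus strand, has 1 annotated transcript of 6 exons, and all of its reads were unique. It had 155, 157 and 150 CPM in well-watered roots, 146, 152 and 144 CPM in mild roots and 146, 156 and 153 CPM in severe roots. The libraries of all 3 treatments overlapped.

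None of the 3 comparisons of sod3 passed: -0.06 for mild against well-watered roots (FDR 0.538), -0.02 for severe against well-watered roots (FDR 0.725) and 0.04 for severe against mild roots (FDR 0.541), all as log2 fold changes. The 95% interval for severe against well-watered roots was -0.14 to 0.09, the narrowest of the members, and without TMM factors the value was 0.07 (FDR 0.243). It was -0.04 (FDR 0.515) without severe replicate 2.

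Levels were compared between genes per kilobase of the longest annotated transcript. In well-watered roots GRMZM2G137839 stood first with 644 ± 10.9 CPM per kb, followed by GRMZM2G054300 with 323 ± 10.1, apx2 with 221 ± 4.46, sod3 with 139 ± 3.25, cat1 with 67.5 ± 1.48, cat3 with 2.08 ± 0.112 and cat2 with 0.246 ± 0.115 CPM per kb (SD, n = 3). The order was the same under mild and severe stress, and in no treatment did the libraries of neighbouring genes in this order overlap. Under severe stress apx2 at 169 ± 9.19 and sod3 at 137 ± 4.25 CPM per kb came closer together, as did sod3 and cat1 at 96.3 ± 9.33 CPM per kb. In total reads cat1 thus lay below every ascorbate peroxidase in each treatment. Levels from reads unique to 1 transcript were scaled to each library's sum of unique reads, without TMM factors. Their values are therefore not comparable with those above. On that scale the well-watered order was another one, with cat1 at 13.3 CPM per kb above apx2 at 0.357 and GRMZM2G054300 at 1.16 CPM per kb. Unique reads made up 9.86% of the reads of cat1, 0.0965% for apx2, 0.183% for GRMZM2G054300 and 100% for sod3. The unique-read order thus cannot be read as one of expression.

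**Figure D4:**
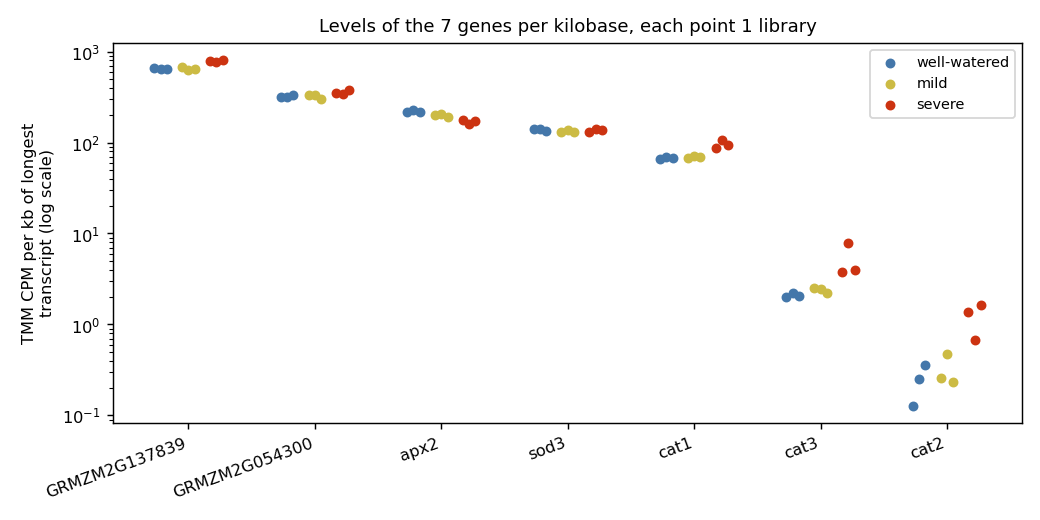
Levels of the 7 genes in TMM CPM per kb of the longest annotated transcript on a log axis, each point 1 library, coloured by treatment and ordered by the well-watered mean. The genes span from 644 CPM per kb for GRMZM2G137839 to 0.246 CPM per kb for cat2 in well-watered roots.

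Correlations of log2 TMM CPM over the 9 libraries are given as descriptions, since the points share their treatments and severe replicate 2. cat1 and cat3 gave Pearson r = 0.963, cat1 and GRMZM2G137839 0.893, and cat1 and apx2 -0.905, while sod3 lay between -0.0611 and 0.218 with the other 6 genes. Among 21960 genes with a mean of at least 1 CPM, the genes most like each member were GRMZM2G176028 and GRMZM2G404897 for cat1 (r = 0.999 and 0.998), GRMZM2G049781 and GRMZM2G443985 for cat2 (0.973 and 0.962) and GRMZM2G391042 and GRMZM2G028307 for cat3 (both 0.995). For the ascorbate peroxidases they were GRMZM2G069061 and GRMZM2G006377 for GRMZM2G137839 (0.994 and 0.993), GRMZM2G080116 and GRMZM2G037140 for apx2 (0.997 and 0.994) and GRMZM2G032865 and GRMZM2G052948 for GRMZM2G054300 (0.966 and 0.957). For sod3 they were GRMZM2G460866 and GRMZM2G052616 (0.945 and 0.940). No member was among the nearest genes of another.

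Of 17 other genes of superoxide and hydrogen peroxide metabolism, 10 rose, 2 fell and 5 did not pass under severe stress against well-watered roots, with a median log2 fold change of 0.37, compared with 58.9% of all genes called and a median of -0.01. Under mild stress 2 rose and 0 fell, where 10.2% of all genes were called, and for severe against mild stress 9 rose and 3 fell, where 53.9% were called. 4 of the 17 were taken by gene ID as the study annotates them, of which 2 rose under severe stress, and 13 were found by gene symbol. When severe replicate 2 was left out, 9 rose and 2 fell under severe stress, dhar4 no longer passing, and 3 rose under mild stress, sod4 being added (0.16, FDR 0.0323). That fit called 54.2% of all genes under severe stress and 15.6% under mild stress. All values of these 17 genes rest on total reads, and for some of them few reads were unique to 1 transcript. For rbohD these were 1, 3 and 4 of 176, 231 and 200 reads in the well-watered libraries.

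GRMZM2G006791 is annotated as a thylakoid ascorbate peroxidase. It passed the filter of 1 CPM through the severe libraries and mild replicates 1 and 3, and no well-watered library reached 1 CPM. Its presence among the genes tested thus depended on its level under stress, so its rises are not independent of that filter. It had 0.602, 0.523 and 0.505 CPM in well-watered roots, 1.04, 1.02 and 0.857 CPM in mild roots and 2.27, 3.28 and 2.70 CPM in severe roots, without overlap between treatments. It rose 5.06-fold in severe roots against well-watered roots (log2 fold change 2.34 ± 0.207 SE, FDR 4.07e-06) and 1.79-fold under mild stress (0.84, FDR 0.0366), from counts of 20 to 22 reads in the well-watered libraries. Without severe replicate 2 the severe value was 2.19 (FDR 2.73e-06). Unique reads numbered 0, 0 and 1 in well-watered, 4, 4 and 0 in mild and 3, 5 and 4 in severe libraries. Its rises thus rest on reads shared between transcripts.

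Among the other dismutase genes sod4, a copper/zinc enzyme, rose under severe stress (log2 fold change 0.48, FDR 0.000259), as did sodC (0.43, FDR 6.91e-05) and GRMZM2G124455, a second gene with manganese dismutase symbols (0.18, FDR 0.00999). Without severe replicate 2 sod4 gave 0.38 (FDR 5.05e-05) under severe stress. sodC also rose under mild stress (0.22, FDR 0.0358). The copper/zinc genes sod2 and sod9 and the iron dismutase gene fsd1 did not pass (0.06, 0.13 and 0.09, FDR 0.381, 0.135 and 0.470).

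The listed reductases that recycle ascorbate and glutathione, all found by symbol, went different ways. The dehydroascorbate reductases dhar1, dhar3 and dhar4 rose under severe stress (log2 fold changes 0.63, 0.94 and 0.50, FDR 7.76e-05, 0.000157 and 0.0195), dhar2 gave 0.01 (FDR 0.967), and the glutathione reductase gene gsr1 fell (-0.36, FDR 0.00326). Without severe replicate 2 the values of dhar1, dhar3 and dhar4 were 0.52, 0.78 and 0.36 (FDR 1.81e-05, 7.31e-05 and 0.0679). That of gsr1 was then -0.27 (FDR 0.00482).

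Of the listed NADPH oxidases, which produce superoxide, rbohB and rbohD rose (0.37 and 0.59, FDR 0.000621 and 0.000676) and rbohC fell (-0.38, FDR 0.000778). The alternative oxidase gene aox3, whose product takes electrons from the mitochondrial chain, rose under severe stress (0.62, FDR 0.00724), and aox2 gave -0.25 (FDR 0.287), or -0.02 (FDR 0.912) without severe replicate 2.

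**Figure D5:**
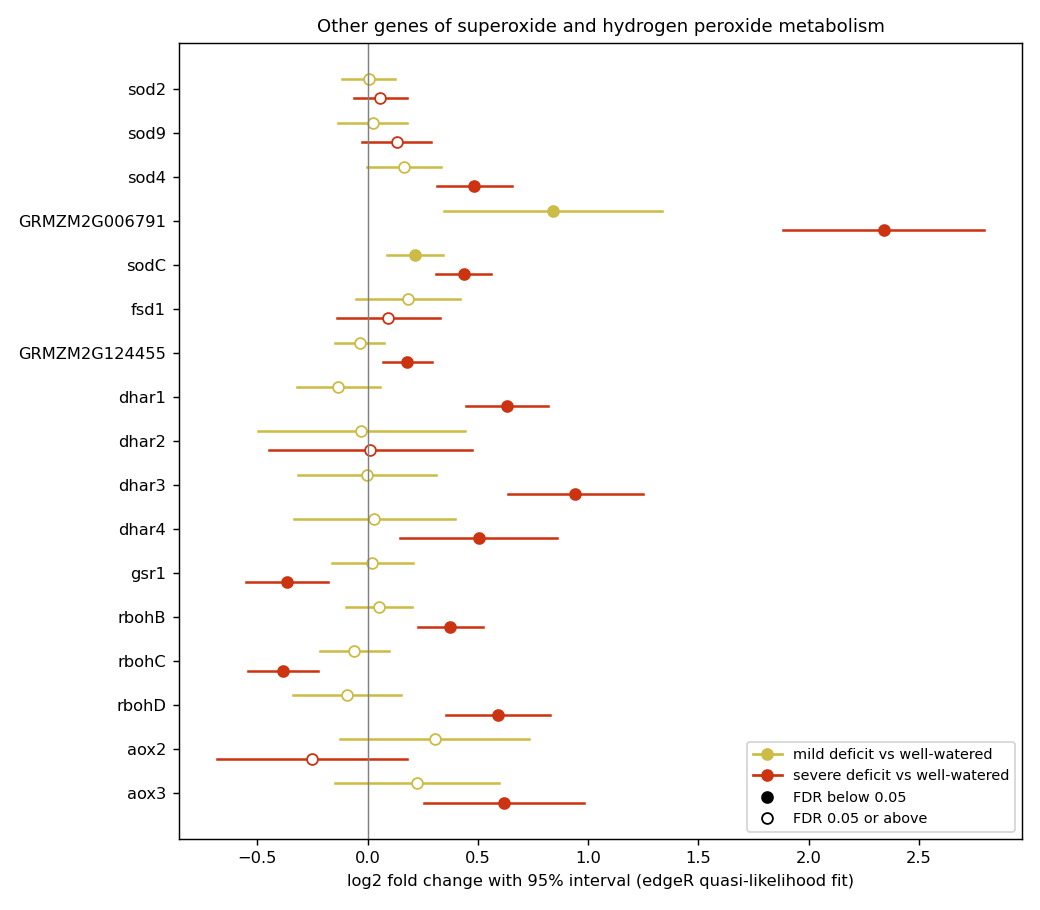
Log2 fold changes with 95% intervals of the 17 other genes for mild and for severe against well-watered roots, filled where the FDR is below 0.05. GRMZM2G006791 lies farthest to the right at 2.34 under severe stress, and gsr1 and rbohC are the 2 filled points below 0.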

How the data were processed

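RNA-seq libraries of the root growth zone were available for 9 samples, 3 per treatment. Per the labels and the paper's methods, the authors mapped trimmed reads to the B73 RefGen_v3 gene models and deposited raw total and unique read counts for 63074 transcripts. They also deposited CPM for 46599 transcripts. These equal a transcript's total reads divided by the library's sum over those 46599 transcripts, without TMM factors. The deposited CPM served only for that check and for an alternative filter. How shared reads were assigned is not given in the sources used here. Treatments were taken from the labels. Replicates are separate root pools.

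Total read counts were summed per gene and analysed in R 4.3.3 with edgeR 4.0.16 (TMM, glmQLFit in its original method, quasi-likelihood F-test, treatment as the only term, all 9 libraries in 1 fit, Benjamini-Hochberg over 22447 genes). The standard error of a fold change was taken as its size on the log2 scale over the root of its F statistic. DESeq2 1.42.0, edgeR's likelihood ratio test and its newer quasi-likelihood method, unique reads, other filters, no TMM factors, fits of 2 treatments, the replicate number as a term, an FDR of 0.01 and each library left out were alternatives. Leaving out severe replicate 2 for transcripts and for the other genes was added after seeing the data. The scripts were tested on simulated data. The smallest detectable level, 3 reads, was 0.0576 to 0.0898 CPM, which covers counting error only.

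All 7 genes are described. Transcripts with at least 10% of a gene's reads are named, with T03 to T05 of cat3 and T04 of apx2 named after their values were seen. The 2 most similar genes per member are named by Pearson r. The rule for the other 17 genes named those past FDR 0.05 against well-watered roots, and those that missed it were added after their values were seen. The gene tables' descriptions could not be searched, so 4 genes were taken from the study's annotation and 13 by symbol once the reference table was at hand. Monodehydroascorbate reductases, glutathione peroxidases and peroxiredoxins were planned as classes but are not among these genes, so the list is incomplete. The members and lists were chosen with earlier results of these data known. RefSeq names (Zm-B73-REFERENCE-NAM-5.0) matched 6 of 7 members, cat3 being named in the files, and all 17 other genes.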

Additional observations from a re-analysis of the deposited data

How the results depend on the processing

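Each called fold change of the 7 genes was counted once per alternative in which it was tested, 176 values in all. Of these, 172 kept direction and call, and 0 reversed. The 176 values are not separate results. Some fits left out a library outside the comparison and hardly moved the value, as for cat1 without mild replicate 1 (0.51 for severe against well-watered roots in both fits). The count of genes changed under mild stress was 2280, against 3727 in the fit of 2 treatments, 1302 with the replicate block and 1110 at an FDR below 0.01, and for severe against mild stress it was 12090, against 6614 with the replicate block. The fit of 2 treatments called 1 of the 7 genes under mild stress, apx2 (-0.16). With unique reads 3 of the 7 were called in each severe comparison, cat2 and apx2 being too low to test, and cat3 was at -0.25 under mild stress.

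Without TMM factors the median of all genes was 0.09 for severe against well-watered roots, GRMZM2G054300 was at 0.23 against well-watered and 0.20 against mild roots (FDR 0.0165), both past the threshold, and sod3 at 0.0735 under severe stress. Deviations of 5 same-numbered pairs of libraries correlated at -0.0127 to 0.103 (mean 0.0574). Those of 22 other pairs across treatments correlated at -0.192 to 0.192 (mean -0.0130). With so few pairs this cannot decide whether replicate numbers pair the libraries. With the replicate block, which leaves 2 residual degrees of freedom, GRMZM2G137839 was at 0.25 (FDR 0.0716) and 0.24 (FDR 0.167) for severe against well-watered and mild roots, apx2 at -0.27 (FDR 0.0896) and sod3 at -0.00973 for severe against mild roots, and 3 of the 7 were called in the last comparison.

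Leaving out each library in turn gave 1372 to 3505 genes changed under mild stress, 11655 to 13324 under severe stress and 10538 to 12441 for severe against mild stress. The mild count was 3505 without severe replicate 2, and 1433, 1372 and 1436 without well-watered replicate 2, mild replicate 3 and mild replicate 4. Of the 7 genes 0 to 1, 5 to 6 and 4 to 5 were called. Mild log2 fold changes ranged from -0.0341 to 0.70 for cat2, -0.0161 to 0.0425 for GRMZM2G137839, -0.19 to -0.13 for apx2 and -0.0149 to 0.0581 for GRMZM2G054300. For severe against well-watered roots they were 0.0910 to 0.16 for GRMZM2G054300 and -0.0424 to 0.00191 for sod3, and for severe against mild roots -0.26 to -0.18 for apx2.

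With unique reads the well-watered levels were 13.3, 0.0538, 0.484, 222, 0.357, 1.16 and 280 CPM per kb for cat1, cat2, cat3, GRMZM2G137839, apx2, GRMZM2G054300 and sod3. These levels were scaled to each library's sum of unique reads, without TMM factors, and are not comparable with those from total reads. Shares of unique reads within a class were 95.2% for cat1, 4.46% for cat3, 99.1% for GRMZM2G137839, 0.154% for apx2 and 0.771% for GRMZM2G054300. Unique reads made up 0.0965% to 17.3% of the reads of the 6 genes with several transcripts and all those of sod3, so the order of levels holds for total reads only. Apart from the scaling, the causes of these differences were not tested. Depth limits cat2 most, with 8 to 30 reads per library outside severe stress.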
